A study of Mus musculus with 11 samples.

Results

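Gene expression in the choroid plexus (CP) of mice in relapse of experimental autoimmune encephalomyelitis (EAE) was compared directly with that of mice in remission. The samples were chosen by the EAE phase in their labels. They are 5 of the 11 CP pools of the series, 2 from relapse and 3 from remission. The 20917 probes with a single gene name stand for 15946 genes, and p-values were adjusted over all 23978 probes of the Illumina MouseRef-8 array.

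Relapse and remission mice were female SJL mice, 6–8 weeks of age, injected with a peptide of proteolipid protein (PLP) in complete Freund's adjuvant (CFA) and with pertussis toxin. Control mice, whose values are given as a scale, had the same strain, sex and age and received phosphate buffer saline in CFA with pertussis toxin, so all groups share the adjuvant and the toxin. Each pool held the CP of 3 mice perfused with saline, and no animal was measured alone. Remission mice were killed before relapse mice, and control mice before both, on the day of the onset mice. Phase and time since immunization therefore cannot be told apart. The p-values measure the spread between these pools, and in bulk tissue fewer cells of a type and less RNA per cell cannot be told apart.

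The CP is a vascular fold of the brain ventricles that secretes cerebrospinal fluid. Its epithelium forms the blood-CSF barrier through tight junctions, whereas the capillaries of its stroma are fenestrated and leak plasma. Leukocytes reach the stroma from these vessels, and the CP is regarded as an entry route of immune cells in EAE, a T cell-driven model of multiple sclerosis. In the relapsing form of the model, an acute episode resolves into remission and symptoms later return.

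The labelled tissue carried its markers in every pool. Ttr, the thyroid hormone carrier that marks CP epithelium, had log2 signals of 16.10 and 16.14 in the relapse pools and 16.07, 16.13 and 16.13 in the remission pools. These values lie at the top of the scale, where differences are compressed. Probes above background, with a detection p under 0.01, numbered 9314 to 9779 in relapse, 9192 to 10168 in remission and 8687 to 10221 over the 11 pools. Remission pool 3 stood closer to the onset pools than to the other remission pools, and closest to onset pool 3. Among the 10012 probes detected in these pools 3, 0 were more than 1 log2 unit apart, while every other pair of pools had 7 to 266 such probes. Remission pool 3 had 16 and 9 such probes against onset pools 1 and 2, and 47 and 24 against remission pools 1 and 2. The reason was not tested. The main results are therefore also given without remission pool 3. Of the 94 genes for which this was computed, 94 had the same direction without it and 76 had an unadjusted p under 0.05. These genes were largely chosen by their differences between these same pools, so the shared direction was close to fixed beforehand. The same shares over all genes were not computed. Pituitary transcripts also varied between pools, and their source was not tested. Prl, the pituitary hormone prolactin, had log2 signals of 14.61 and 12.70 at relapse, 12.12, 12.04 and 14.25 at remission and 11.09, 12.96 and 10.71 in control.

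To find which transcripts separated the phases, limma's moderated test was applied to relapse minus remission. It called 7 probes lower at relapse at an adjusted p under 0.05, which is 0.0292% of all probes. It called 0 probes higher (0% of all probes), with 686 probes higher and 636 lower at an unadjusted p under 0.05. The 7 probes belong to 7 genes expressed in or around blood vessels: Flt1, Robo4, Alpl, Emcn, Arap3, Cxcl12 and Eng. Their direction was the same in every alternative tried, which was close to given for genes called on these pools. The call was less stable than the size. Without remission pool 3, remission pool 2 or relapse pool 1, 0 probes were called lower, and without remission pool 1 or relapse pool 2 the counts were 3 and 4. Scaling arrays to a common median also gave 0. At these group sizes the smallest p of an exact permutation test of a single gene is 0.1, so calls rest on the spread shared across probes. The groups of genes below are described by how many members had an unadjusted p under 0.05, a rule that 2.95% of all genes met in the lower direction and 2.87% in the higher. Some genes, such as Emcn, Ctss and Cp, are in more than 1 list, so the counts of different lists are not independent.

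**Figure D1:**
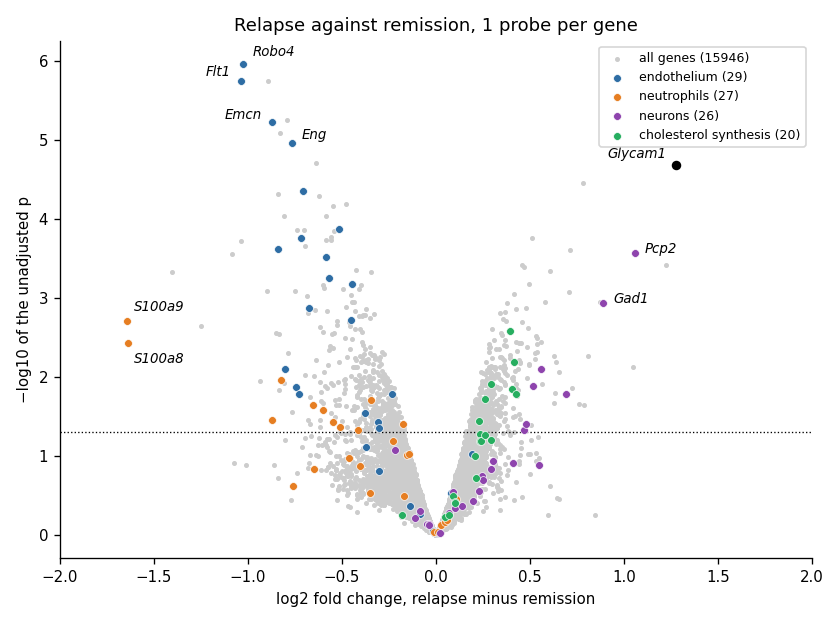
Log2 fold change of relapse minus remission (x axis) against −log10 of the unadjusted limma p (y axis) for 15946 genes in grey, with the genes of 4 lists in colour and the dotted line at an unadjusted p of 0.05. Endothelial genes lie at the upper left with Flt1 at -1.03 and Robo4 at -1.03, S100a9 and S100a8 lie farthest left at -1.64, and Glycam1 lies farthest right at 1.28.

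The 7 called vessel genes were the clearest difference: they were lower at relapse than at remission, by up to 2.05-fold, and stood near the control level at relapse. Flt1, a VEGF receptor of endothelial cells, had log2 signals of 11.55 and 11.78 in the relapse pools, against 12.54, 12.66 and 12.91 in the remission pools and 11.80, 11.61 and 11.63 in the control pools. Both relapse pools were below all remission pools and lay around the control values. The log2 fold change was -1.03 ± 0.12 (SE; adjusted p = 0.0143, limma). Robo4, an endothelial receptor known to stabilise vessels, had 10.08 and 10.17 at relapse, 11.04, 11.18 and 11.24 at remission and 10.45, 10.04 and 10.37 in control. Its log2 fold change was -1.03 ± 0.12 (SE; adjusted p = 0.0143, limma). Alpl, the tissue-nonspecific alkaline phosphatase found on brain capillaries, had 10.82 and 11.06 at relapse, 11.70, 11.86 and 11.95 at remission and 11, 11.02 and 11.10 in control, a drop of 1.85-fold (log2 fold change -0.89 ± 0.11 (SE), adjusted p = 0.0143, limma).

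The other 4 called genes followed the same order of groups. Emcn, the capillary and venous sialomucin endomucin, had log2 signals of 12.11 and 12.09 at relapse, 12.86, 13.01 and 13.05 at remission and 12.50, 12.15 and 12.42 in control (log2 fold change -0.87 ± 0.12 (SE), adjusted p = 0.0284, limma). Eng, or endoglin, a coreceptor of the TGF-beta family in endothelium, had 9.64 and 9.82 at relapse, 10.51, 10.39 and 10.58 at remission and 9.86, 9.78 and 9.77 in control (-0.77 ± 0.11 (SE), adjusted p = 0.0370, limma). For both genes the remission pools were above every control pool, and the relapse pools were within or below the range of control. Arap3, a signalling protein used in vessel sprouting, had a log2 fold change of -0.79 ± 0.11 (limma adjusted p = 0.0284; error as SE). It had 9.48 and 9.64 at relapse, 10.38, 10.33 and 10.34 at remission and 9.80, 9.45 and 9.76 in control. Cxcl12, a chemokine of stromal and endothelial cells that binds Cxcr4, had 11.14 and 11.05 at relapse, 11.81, 11.92 and 12.04 at remission and 11.36, 10.96 and 11.24 in control (-0.83 ± 0.11 (SE), adjusted p = 0.0328, limma). Without remission pool 3 the log2 fold changes of the 7 genes ran between -0.98 for Robo4 and -0.73 for Eng. Their adjusted p then ran between 0.101 and 0.199, within a range of 0.00481 to 0.522 over all alternatives.

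**Figure D2:**
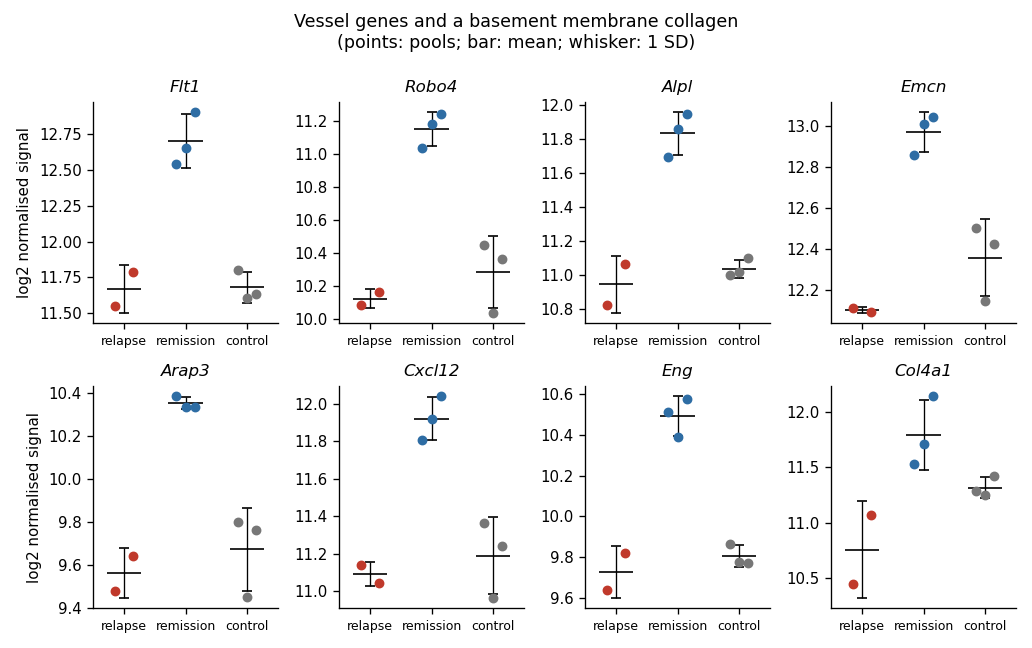
Log2 normalised signal (y axis, not starting at 0) of the 7 called vessel genes and of Col4a1 in each relapse, remission and control pool (points), with the mean (bar) and 1 SD (whisker). In each panel both relapse pools lie below all 3 remission pools, for Flt1 at 11.55 and 11.78 against 12.54 to 12.91.

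Since these genes moved together, the sequence before their start sites is shown, from RefSeq on build GRCm38.p6. The 250 bases before the most upstream start are given along the gene's own strand, 5′ to 3′, for Flt1 (chr5:147726012-147726261, minus strand), Robo4 (chr9:37401722-37401971, plus strand), Alpl (chr4:137796385-137796634, minus strand) and Emcn (chr3:137340828-137341077, plus strand). Capitals mark CAGGAA or its reverse complement TTCCTG, a form of the core bound by ETS factors, which are known regulators of endothelial genes.
Flt1: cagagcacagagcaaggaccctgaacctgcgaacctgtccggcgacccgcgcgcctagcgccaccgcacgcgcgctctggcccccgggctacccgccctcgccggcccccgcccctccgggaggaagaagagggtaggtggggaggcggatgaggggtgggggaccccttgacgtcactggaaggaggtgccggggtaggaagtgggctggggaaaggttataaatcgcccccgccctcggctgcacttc
Robo4: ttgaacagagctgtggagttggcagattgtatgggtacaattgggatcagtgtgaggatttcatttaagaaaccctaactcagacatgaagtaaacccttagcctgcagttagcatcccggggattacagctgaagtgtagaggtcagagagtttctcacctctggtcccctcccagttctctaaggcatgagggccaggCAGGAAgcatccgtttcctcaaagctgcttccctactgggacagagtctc
Alpl: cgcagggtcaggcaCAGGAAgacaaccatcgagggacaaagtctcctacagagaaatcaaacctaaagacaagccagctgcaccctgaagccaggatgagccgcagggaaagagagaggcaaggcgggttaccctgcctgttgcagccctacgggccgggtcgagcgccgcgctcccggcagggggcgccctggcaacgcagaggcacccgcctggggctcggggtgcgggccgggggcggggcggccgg
Emcn: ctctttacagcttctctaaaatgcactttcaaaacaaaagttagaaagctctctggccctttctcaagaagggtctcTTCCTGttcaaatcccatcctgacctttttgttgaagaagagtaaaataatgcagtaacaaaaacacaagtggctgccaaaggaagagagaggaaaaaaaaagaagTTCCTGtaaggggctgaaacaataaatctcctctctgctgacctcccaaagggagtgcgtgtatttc
The letters were present before 3 of the 6 genes looked up (Robo4, Alpl and Emcn) and in 25.7% of all 32851 promoters of the table. No match to these letters lay in the windows of Flt1, Cxcl12 and Eng. Other forms of the core were not searched, and the Flt1 window holds GGAA in other surroundings. The count therefore does not show which windows lack an ETS site. The closest match lay 50 bases before the start of Robo4.

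Of 29 endothelial genes measured, 20 were lower at relapse at an unadjusted p under 0.05 and 0 were higher, against 2.95% of all genes lower. The median log2 fold change of the list was -0.45, against 0.01 for all genes. Flt1, Robo4, Emcn and Eng passed the adjusted threshold, and 6 members were above background in no pool. The mean log2 signal of the 15 members above background on all arrays was 10.59 to 10.68 at relapse, 11.10 to 11.38 at remission and 10.37 to 10.72 in control, so relapse and remission did not overlap and relapse lay within the range of control. Leaving out remission pool 3 gave 18 lower members, and leaving out relapse pool 1 gave 14. The genes included the transcription factor Sox18 (log2 fold change -0.84 ± 0.17 (SE)) and the phosphatase Ptprb, which acts on junctions (-0.72 ± 0.14 (SE)). Tek, the angiopoietin receptor, had -0.51 ± 0.09 (SE), and the junction proteins Cdh5, or VE-cadherin, and Esam had -0.44 ± 0.10 and -0.67 ± 0.16 (SE). Plvap, which forms the diaphragms of fenestrae, had log2 signals of 10.80 and 11.04 at relapse and 11.29, 11.63 and 12.25 at remission (-0.80 ± 0.25 (SE)). Esm1, a secreted proteoglycan of sprouting tips, departed from the rest within remission. It had 9.15 and 9.30 at relapse but 10.28, 10.26 and 9.30 at remission, where pool 3 was as low as the relapse pools. Cd34, a sialomucin of vessels and progenitors, was above background in 0 of the 2 relapse pools and in all 3 remission pools, at least 1.51-fold lower at relapse.

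Vessel genes outside that list were among the largest differences, as were A2m and Acer2, which are not counted as vessel genes here. Cd300lg, a receptor of capillary endothelium, was at least 1.64-fold lower and Gpihbp1, which anchors lipoprotein lipase in capillaries, at least 1.68-fold lower at relapse, each above background in 0 of 2 relapse and 3 of 3 remission pools. Adgrl4, an endothelial adhesion receptor, had log2 signals of 9.46 and 9.94 at relapse and 10.36, 10.49 and 10.77 at remission, and differed by -0.84 ± 0.14 on that scale (limma adjusted p = 0.093; error as SE). Car4, the membrane-bound carbonic anhydrase, was above background in 0 of 2 relapse and 3 of 3 remission pools (at least 1.41-fold lower). A2m, the plasma protease inhibitor alpha-2-macroglobulin, had 12.51 and 12.76 at relapse, 13.84, 13.53 and 14.28 at remission and 13.45, 14.26 and 13.07 in control (-1.25 ± 0.33 (SE)), so its relapse pools were below every remission and control pool. Acer2, a ceramidase, had -0.85 ± 0.23 (SE), and -0.56 without remission pool 3. The basement membrane collagens went the same way. Col4a1 had 10.45 and 11.07 at relapse, 11.53, 11.71 and 12.14 at remission and 11.28, 11.25 and 11.42 in control (-1.04 ± 0.20 (SE)), so at relapse it lay below control as well. Col4a2 (-0.75 ± 0.17 (SE)), the basement membrane linker Nid1 (-0.46 ± 0.12 (SE)) and the collagen cross-linking enzyme Lox (-0.79 ± 0.23 (SE)) were lower too at an unadjusted p. Over the 43 extracellular matrix genes, 8 were lower and 1 was higher at an unadjusted p, and the list's median was -0.05. The lower count was 7 without remission pool 3, 3 without relapse pool 1 and 4 without relapse pool 2. Of 28 stromal and mural cell genes, 5 were lower and 0 higher, among them Pdgfrb, the PDGF receptor of pericytes (-0.56 ± 0.16 (SE)). The lower count was 2 without remission pool 3, 1 without relapse pool 1, and 3 without relapse pool 2 or remission pool 2.

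Neutrophil and myeloid-recruiting transcripts were the largest differences in size but varied more between pools. S100a9 and S100a8, the subunits of calprotectin in neutrophils and monocytes, had log2 fold changes of -1.64 ± 0.42 and -1.64 ± 0.46 (SE; adjusted p = 0.466 and 0.603, limma). S100a9 had log2 signals of 9.77 and 10.02 at relapse, 11.14, 11.18 and 12.29 at remission and 10.64, 9.57 and 10.97 in control. The control pools ranged between a value below both relapse pools and one just under the lowest remission pool. Cxcl1, a chemokine that attracts neutrophils, had 9.47 and 9.19 at relapse, 10.74, 10.18 and 11.29 at remission and 9.56, 9.32 and 10.10 in control (-1.40 ± 0.30 (SE), adjusted p = 0.244, limma). Its relapse pools were within or below the range of control, and its remission pools above it. Ltf, the granule protein lactoferrin, was above background in 0 of 2 relapse and 3 of 3 remission pools (at least 1.36-fold lower). For Mpo, or myeloperoxidase, the counts were 0 of 2 and 2 of 3 (at least 1.23-fold lower).

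Of 27 neutrophil genes, 11 were lower and 0 higher at relapse at an unadjusted p, and their median log2 fold change was -0.35, but only 6 members were above background in all pools of either phase and 11 in no pool. The count was 4 without remission pool 3, without relapse pool 1 or without relapse pool 2, and the median without remission pool 3 was -0.15. Over 36 chemokine ligands, 4 were lower and 1 was higher. Besides Cxcl1 and Cxcl12, Ccl7, which attracts monocytes, was above background in 0 of 2 relapse and 3 of 3 remission pools (at least 1.43-fold lower).

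Lcn2, which encodes the iron-siderophore binding protein lipocalin 2, overlapped between the phases. It had log2 signals of 10.22 and 10.98 at relapse, 10.21, 11.12 and 12.75 at remission and 10.29, 8.95 and 10.90 in control. Remission pool 1 was as low as the lower relapse pool, and remission pool 3 was the highest of these pools. The log2 fold change was -0.76 ± 0.62 (SE; adjusted p = 0.916, limma), with a 95% interval of -2.11 to 0.58. It was -0.07 without remission pool 3. Saa3, a serum amyloid A of macrophages and stroma, showed the same layout with 9.55 and 9.75 at relapse and 9.52, 10.25 and 12.20 at remission. Its log2 fold change of -1.01 ± 0.62 (SE) became -0.24 without that pool. Serpina3n, an acute phase protease inhibitor, had 10.25 and 10.78 at relapse and 8.86, 9.24 and 11.46 at remission. Leaving out pool 3 raised its log2 fold change to 1.46, against 0.66 ± 0.68 (SE) over all pools.

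**Figure D3:**
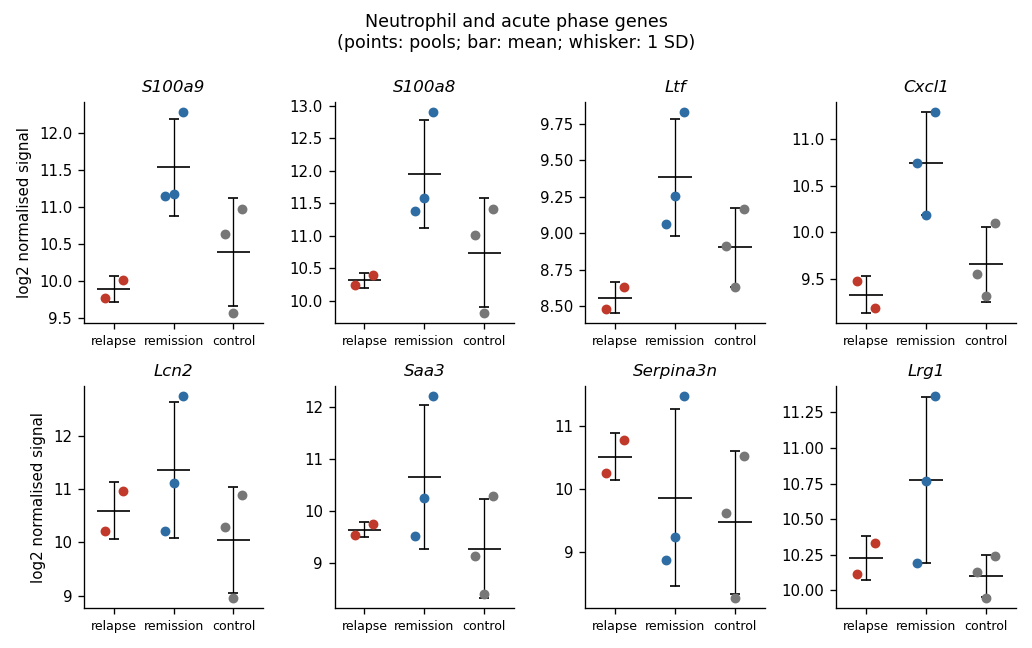
Log2 normalised signal (y axis, not starting at 0) of 8 neutrophil and acute phase genes in each relapse, remission and control pool (points), with the mean (bar) and 1 SD (whisker). Remission pool 3 is the highest point in each panel, at 12.75 for Lcn2, and for Lcn2, Saa3, Serpina3n and Lrg1 the relapse and remission pools overlap.

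Of 27 acute phase genes, 7 were lower and 0 higher at an unadjusted p, with a median of -0.16. The lower genes above background in every pool of both phases were Cp, the ferroxidase ceruloplasmin (-0.83 ± 0.23 (SE)), the NF-kB feedback genes Nfkbiz (-0.49 ± 0.11 (SE)) and Nfkbia (-0.68 ± 0.29 (SE)), and Lrg1, a glycoprotein that modulates TGF-beta signalling (-0.55 ± 0.24 (SE)). Nfkbiz had log2 signals of 10.65 and 10.69 at relapse, 11.07, 11.02 and 11.39 at remission and 10.60, 10.61 and 10.60 in control. Its relapse pools were thus close to control and its remission pools above it. Without remission pool 3, 3 of the 27 genes were lower and the median was -0.01. Without relapse pool 1 or relapse pool 2 the lower counts were 2 and 3. Lrg1 overlapped between the phases, had -0.26 without remission pool 3 and then missed the unadjusted threshold. Nfkbia also missed it without that pool, at -0.64.

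Macrophage, antigen presentation and interferon genes were lower at relapse in smaller numbers. Of 31 macrophage and monocyte genes, 6 were lower and 0 higher at an unadjusted p, and their median was -0.17. Mrc1, the mannose receptor of resident tissue macrophages, was the most separated of them. It had 9.37 and 9.52 at relapse, 10.12, 10.11 and 10.01 at remission and 9.56, 9.54 and 9.54 in control (-0.64 ± 0.10 (SE), adjusted p = 0.0548, limma). Ctss, the lysosomal protease cathepsin S, had a log2 fold change of -0.93 ± 0.32 (SE) and the complement subunit C1qb -0.36 ± 0.16 (SE). Irf8, a transcription factor of macrophages and dendritic cells, had 10.16 and 10.31 at relapse, 10.82, 10.80 and 10.83 at remission and 10.18, 10.06 and 10.32 in control (-0.58 ± 0.11 (SE)). The growth factor of macrophages Csf1 had -0.41 ± 0.10 (SE). The count of 6 macrophage genes was also 6 without remission pool 3, 2 without either relapse pool and 3 without remission pool 2.

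Among 13 genes of MHC class II presentation, 3 were lower and 0 higher at an unadjusted p, with a median of -0.18. The lower ones included Ctss, already counted with the macrophage genes. The class II genes H2-DMa (-0.23 ± 0.12 (SE)) and H2-Eb1 (-0.30 ± 0.26 (SE)) missed the unadjusted threshold. Cd74, the invariant chain, had log2 signals of 13.31 and 13.77 at relapse, 14.31, 14.26 and 13.65 at remission and 12.68, 12.51 and 13.04 in control. Relapse overlapped remission through pool 3, and both phases lay above every control pool. The count of 3 was 4 without remission pool 3, and 1 without relapse pool 1, remission pool 1 or remission pool 2. For 26 genes of MHC class I and antigen processing, 4 were lower and 0 higher, with a median of -0.09. They included H2-K1 (-0.67 ± 0.25 (SE)), H2-T23 (-0.54 ± 0.16 (SE)) and the immunoproteasome subunit Psmb9 (-0.64 ± 0.16 (SE)). Of 43 interferon-induced genes, 8 were lower and 0 higher, with a median of -0.11. Rsad2, the antiviral protein viperin, had 9.43 and 9.48 at relapse, 9.92, 10.03 and 9.85 at remission and 9.72, 9.63 and 9.67 in control (-0.48 ± 0.08 (SE), adjusted p = 0.102, limma), so its relapse pools were below control. Ifitm1 had -0.40 ± 0.11 (SE). Gbp3 had -0.62 ± 0.27 (SE), and -0.23 without remission pool 3. Without remission pool 3 or relapse pool 1, 4 interferon-induced genes were lower, and without relapse pool 2, 5 were.

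The 40 genes of leukocyte adhesion and trafficking went both ways, with 7 lower and 1 higher at an unadjusted p, and 6 lower without remission pool 3. The lower ones included Emcn, already counted with the endothelial genes. Icam1, the integrin ligand for leukocyte arrest, had log2 signals of 12.51 and 12.41 at relapse, 12.76, 12.91 and 13.54 at remission and 12.23, 11.96 and 12.39 in control (-0.61 ± 0.22 (SE)), and -0.38 without remission pool 3. Madcam1, the mucosal addressin that binds alpha4beta7 integrin, had 9.65 and 9.74 at relapse, 10.12, 10.44 and 10.33 at remission and 9.58, 9.29 and 9.91 in control (-0.60 ± 0.16 (SE)). Podxl, a sialomucin of endothelium, had -0.58 ± 0.12 (SE). Icam2 was above background in 0 of 2 relapse and 3 of 3 remission pools (at least 1.15-fold lower).

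Glycam1, a mucin-like ligand of L-selectin known from high endothelial venules of lymph nodes, was the exception of that list and had the largest positive log2 fold change of all 15946 genes. It had log2 signals of 10.08 and 10.53 at relapse, against 9.29, 9.06 and 8.73 at remission and 8.65, 8.21 and 8.55 in control. Relapse pools were above all remission pools, and remission pools above all control pools, but it was above background in 2 of 2 relapse, 2 of 3 remission and 0 of 3 control pools. The log2 fold change was 1.28 ± 0.19 (SE), or 2.43-fold on the linear scale, and missed the threshold (adjusted p = 0.0548, limma). It was 1.13 without remission pool 3 and 1.88 with neqc background correction. Over the alternatives its adjusted p ran between 0.0134, with array weights, and 0.554. Cxcl13, the chemokine that draws B cells to lymphoid follicles, had 11.01 and 10.93 at relapse, 10.05, 10.22 and 10.29 at remission and 9.16, 8.82 and 9.35 in control. The 3 groups again stood in the same order without overlap, and the difference was 0.79 ± 0.30 (limma adjusted p = 0.863; error as SE), or 0.84 without remission pool 3.

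Lymphocyte lists held few genes past the test. Of 25 T cell genes, 1 was higher and 0 lower at an unadjusted p, and 15 were above background in no pool. Cd3e, Cd3d and Cd3g, subunits of the T cell receptor complex, had log2 fold changes of 0.15 ± 0.17, 0.21 ± 0.18 and 0.23 ± 0.16 (SE). Cd3e had log2 signals of 9.30 and 9.52 at relapse, 9.29, 9.35 and 9.13 at remission and 8.18, 8.06 and 8.57 in control, so both phases were above control and overlapped each other. Of 20 B and plasma cell genes, 2 were higher and 1 was lower. Among the higher ones was Mzb1, a chaperone of antibody-secreting cells (0.29 ± 0.11 (SE)), which had 0.20 without remission pool 3 and then missed the threshold. For 18 NK and cytotoxic and 12 mast cell and basophil genes the counts were 0 in either direction, and for 17 dendritic cell genes 1 was lower.

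**Figure D4:**
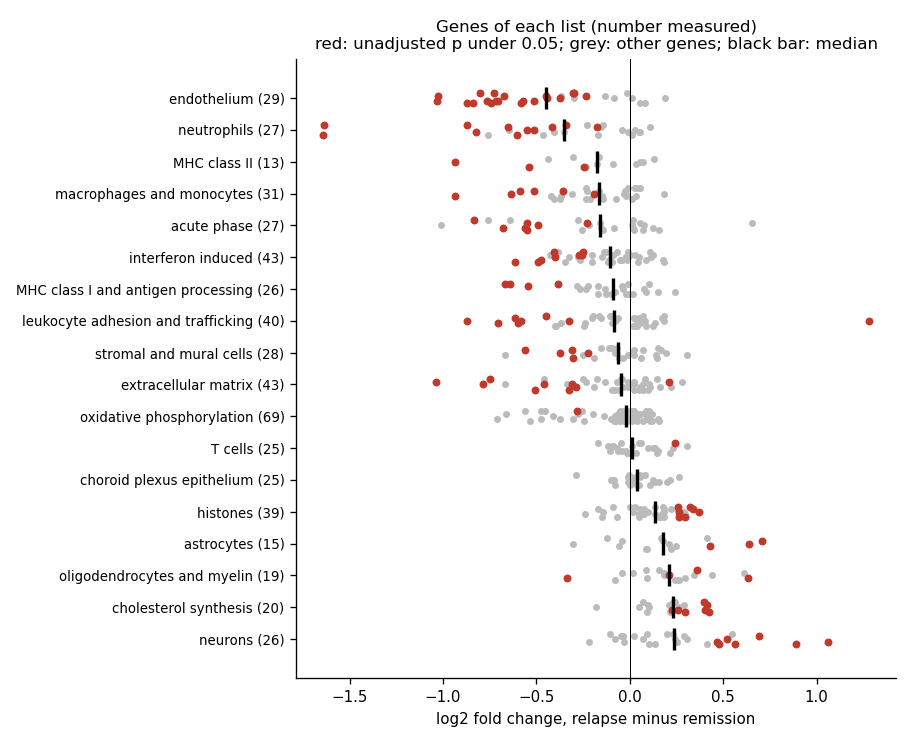
Log2 fold change of relapse minus remission (x axis) for the measured genes of 18 lists (rows, number of genes in brackets), red where the unadjusted limma p was under 0.05 and grey otherwise, with the median of each list as a black bar. The medians run between -0.45 for endothelium and 0.24 for neurons, and CP epithelium lies at 0.04.

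Genes of cholesterol synthesis were higher at relapse by small amounts. Of 20 measured, 7 were higher and 0 lower at an unadjusted p, against 2.87% of all genes higher, and the median log2 fold change was 0.23. The 7 were spread along the pathway: Hmgcs1 (0.30 ± 0.10 (SE)), Mvd (0.26 ± 0.10 (SE)), Fdps (0.40 ± 0.11 (SE)), Sqle (0.23 ± 0.10 (SE)), Cyp51 (0.43 ± 0.15 (SE)), Nsdhl (0.41 ± 0.13 (SE)) and Dhcr7 (0.41 ± 0.14 (SE)). Hmgcs1, which makes the HMG-CoA that statins' target enzyme reduces, had log2 signals of 15.25 and 14.96 at relapse, 14.79, 14.82 and 14.82 at remission and 15.01, 14.84 and 15.05 in control. Fdps, which makes farnesyl diphosphate, had 13.43 and 13.30 at relapse, 12.99, 13.02 and 12.91 at remission and 13.32, 13.26 and 13.38 in control. In both genes remission was below every relapse and control pool. Relapse pool 1 was above every control pool and relapse pool 2 within their range. For Nsdhl both relapse pools were above every control pool. The relapse pools were not alike: the mean of 14 members above background on all arrays was 11.84 in pool 1 and 11.58 in pool 2, against 11.41 to 11.50 at remission and 11.61 to 11.63 in control. Without relapse pool 1, 1 gene was higher, without relapse pool 2, 10 were, and without remission pool 3, 4 were. With median scaling the count was 3.

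Transcription of this pathway is known to be driven by SREBP factors, which bind sterol elements together with the CCAAT-binding factor NF-Y. The 250 bases before the start are shown for the 4 genes with a match to either sequence searched, along the gene's own strand: Hmgcs1 (chr13:119690101-119690350, plus strand), Nsdhl (chrX:72918271-72918520, plus strand), Cyp51 (chr5:4104698-4104947, minus strand) and Mvd (chr8:122443423-122443672, minus strand). Capitals mark TCACNCCAC, a form of the sterol element where N is any base, and CCAAT. Each was searched on either strand, so that CCAAT on the other strand reads ATTGG.
Hmgcs1: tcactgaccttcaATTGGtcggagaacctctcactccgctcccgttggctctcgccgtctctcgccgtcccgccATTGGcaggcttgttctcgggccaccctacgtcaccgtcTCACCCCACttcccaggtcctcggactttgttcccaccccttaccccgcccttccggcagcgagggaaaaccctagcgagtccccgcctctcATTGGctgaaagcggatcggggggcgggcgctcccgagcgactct
Nsdhl: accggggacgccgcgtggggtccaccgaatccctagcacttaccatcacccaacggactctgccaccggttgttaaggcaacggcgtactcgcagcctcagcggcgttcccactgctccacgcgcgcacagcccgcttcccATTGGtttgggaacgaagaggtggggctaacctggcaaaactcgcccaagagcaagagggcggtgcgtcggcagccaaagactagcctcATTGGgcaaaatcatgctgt
Cyp51: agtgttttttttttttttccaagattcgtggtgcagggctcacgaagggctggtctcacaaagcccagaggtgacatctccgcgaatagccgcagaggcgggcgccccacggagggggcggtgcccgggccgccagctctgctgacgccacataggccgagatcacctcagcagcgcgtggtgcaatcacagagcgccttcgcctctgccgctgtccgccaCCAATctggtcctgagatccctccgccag
Mvd: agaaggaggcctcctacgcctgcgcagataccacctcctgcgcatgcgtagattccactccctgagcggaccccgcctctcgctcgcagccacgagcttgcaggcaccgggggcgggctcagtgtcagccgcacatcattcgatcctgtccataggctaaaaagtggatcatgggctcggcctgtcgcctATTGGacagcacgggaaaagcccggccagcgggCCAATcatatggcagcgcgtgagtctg
This form of the sterol element was found in 1 of the 5 genes in the table, Hmgcs1, and in 1.05% of all promoters. Other forms were not searched, so the count does not show which windows lack a sterol element. CCAAT was found in 4 of 5 and in 33.8% of all promoters. Neither sequence was found in the window of Dhcr7.

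Histone genes were also higher at relapse in part. Of 39 measured, 7 were higher and 0 lower at an unadjusted p, with a median of 0.14, and the largest were H4c18 (0.37 ± 0.13 (SE)), H4c1 (0.34 ± 0.14 (SE)) and H3c11 (0.32 ± 0.12 (SE)). Without remission pool 3, H4c1 had 0.21 and missed the unadjusted threshold. Probes for these near-identical genes may share transcripts. The mean of 24 members was 12 to 12.04 at relapse, 11.70 to 11.99 at remission and 12.05 to 12.12 in control. The count was 2 without remission pool 3 or relapse pool 2, 1 without relapse pool 1, 13 without remission pool 2 and 0 with median scaling.

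A share of the neural markers was higher at relapse. Of 26 neuronal genes measured, 7 were higher and 0 lower at an unadjusted p, the median log2 fold change was 0.24, and 8 were above background in no pool. The log2 fold change was positive for 20 of the 26 and negative for 6. Pcp2, a protein of Purkinje cells of the cerebellum, was above background in 2 of 2 relapse, 0 of 3 remission and 0 of 3 control pools, at least 1.47-fold higher at relapse. Gad1, the enzyme that makes GABA, had log2 signals of 10.99 and 10.64 at relapse, 9.66, 10 and 10.11 at remission and 9.86, 10.06 and 9.95 in control (0.89 ± 0.21 (SE), adjusted p = 0.396, limma). Pvalb, a calcium-binding protein of Purkinje cells and interneurons, had 11.71 and 11.01 at relapse, 9.97, 10.25 and 10.71 at remission and 9.92, 10.48 and 10.46 in control (1.05 ± 0.33 (SE)). In these 3 genes relapse pool 1 was the highest pool and remission did not stand apart from control. Pvalb and the genes named next were taken from the 15 largest higher differences, not as members of the list. Gng13, a G protein subunit, had 1.23 ± 0.26 (SE), the neuronal proteins Caln1 and Fez1 0.72 ± 0.25 and 0.65 ± 0.21 (SE), the granule cell protein Cbln1 0.87 ± 0.21 (SE) and the kinase subunit Camk2b 0.69 ± 0.25 (SE). Reln, the secreted guidance protein reelin, had 9.89 and 10.14 at relapse, 9.36, 9.13 and 9.21 at remission and 9.52, 9.46 and 9.74 in control (0.79 ± 0.13 (SE), adjusted p = 0.0826, limma). Chrna4, a subunit of the nicotinic acetylcholine receptor, had 12.67 and 12.74 at relapse, 12.13, 12.28 and 11.28 at remission and 12.18, 12.41 and 11.76 in control (0.81 ± 0.24 (SE)), and 0.50 without remission pool 3. In Cbln1, Reln and Chrna4 relapse pool 2 was the highest pool. The cell source of these transcripts was not tested.

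Glial markers were also higher in part. Of 15 astrocyte genes, 3 were higher and 0 lower at an unadjusted p, and 6 were above background in no pool. The higher ones were Aqp4, the water channel of astrocyte endfeet (0.71 ± 0.16 (SE)), the glutamate transporter Slc1a3 (0.64 ± 0.20 (SE)) and Aldh1l1 (0.43 ± 0.16 (SE)). Gfap, the study's astrocyte marker, was above background in 0 of 2 relapse, 0 of 3 remission and 0 of 3 control pools. Of 19 oligodendrocyte and myelin genes, 3 were higher and 1 was lower, and 9 were above background in no pool. Cnp, the gene of the study's oligodendrocyte marker, had a log2 fold change of 0.02 ± 0.19 (SE). Mag, a myelin adhesion protein, had log2 signals of 10.31 and 10.06 at relapse, 9.47, 9.31 and 9.86 at remission and 9.06, 8.91 and 9.78 in control (0.63 ± 0.24 (SE)). Mbp, the myelin basic protein, had 12.94 and 13.25 at relapse, 12.45, 11.96 and 13.06 at remission and 11.17, 10.92 and 12.67 in control (0.61 ± 0.49 (SE)), so the phases overlapped. When remission pool 3 was left out, 10 neuronal, 6 astrocyte and 5 oligodendrocyte genes were higher. Without relapse pool 1, 2 neuronal, 4 astrocyte and 0 oligodendrocyte genes were. Without remission pool 1 the neuronal count was 3, and without remission pool 2 the astrocyte and oligodendrocyte counts were 2 and 1.

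The list means of these neural markers were laid out otherwise than those of the endothelial genes. At relapse the neural means lay above control, whereas the endothelial mean lay within the range of control. The mean log2 signal of 4 neuronal genes above background on all arrays was 10.12 to 10.27 at relapse, 9.76 to 9.92 at remission and 9.67 to 9.76 in control, and that of 7 astrocyte genes 12.55 to 12.62, 12.30 to 12.47 and 12.27 to 12.42. For 6 oligodendrocyte genes the phases overlapped, with 11.71 to 11.73 at relapse, 11.29 to 11.77 at remission and 10.98 to 11.44 in control. The contribution of neural transcripts to the other differences was not tested. The 24 epithelial genes, by contrast, had means of 14.99 to 15.02 at relapse, 14.92 to 15.01 at remission and 14.94 to 15.04 in control.

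**Figure D5:**
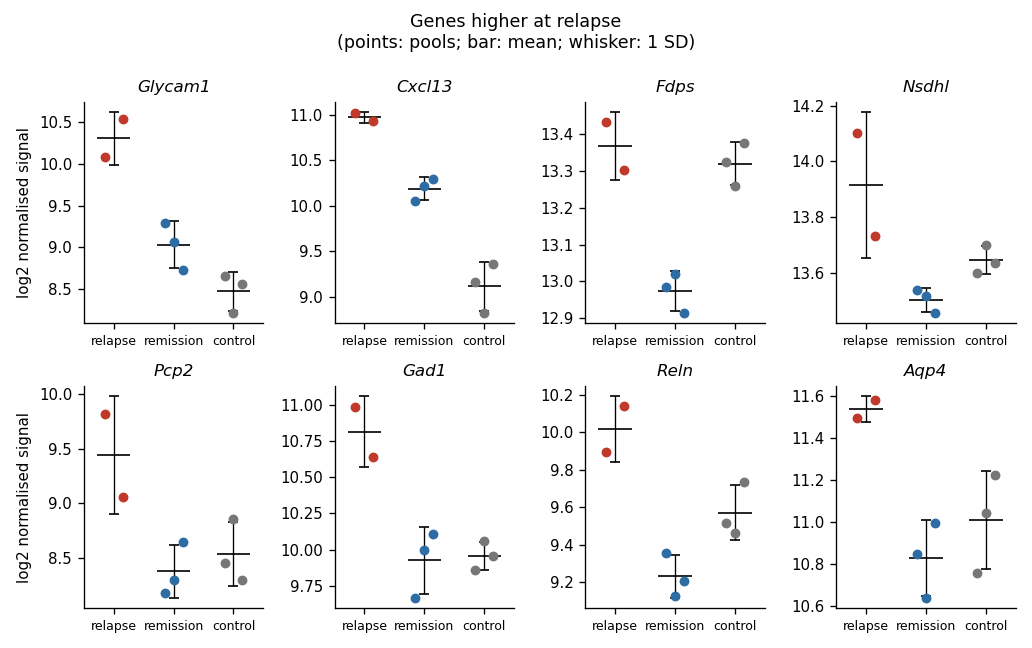
Log2 normalised signal (y axis, not starting at 0) of 8 genes with a higher mean at relapse in each relapse, remission and control pool (points), with the mean (bar) and 1 SD (whisker). Glycam1 and Cxcl13 step up by group, Cxcl13 at 11.01 and 10.93 in relapse and 10.05 to 10.29 in remission, whereas for Fdps relapse overlaps control, at 13.43 and 13.30 against 13.26 to 13.38.

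Epithelial and housekeeping lists held few genes past the test. Of 25 CP epithelium genes, 0 had an unadjusted p under 0.05 in either direction, and their log2 fold changes lay between -0.29 and 0.26. For 23 junction genes, 1 was higher and 1 lower, the lower one being the endothelial Cdh5. Among 20 ion and water transport genes the astrocyte channel Aqp4 was higher and Car4 lower. Motile cilia genes were lower in 2 of 26, oxidative phosphorylation genes in 1 of 69 and cytosolic ribosomal protein genes in 0 of 69, with 0 higher in each. The lists of the unfolded protein response and heat shock (28 genes), the circadian clock (20 genes) and hypoxia and glycolysis (26 genes) had 0 in either direction. In 3 of these lists the mean of members above background on all arrays nevertheless separated the phases by a small amount. For 14 ion and water transport genes it was 14.19 to 14.21 at relapse, 14.05 to 14.08 at remission and 14.09 to 14.14 in control. For 63 oxidative phosphorylation genes it was 14.24 to 14.26, 14.30 to 14.39 and 14.29 to 14.45 in the same groups, and for 65 ribosomal protein genes 14.60 to 14.62, 14.67 to 14.68 and 14.64 to 14.70. The median log2 fold change of the oxidative phosphorylation list was -0.02, and turned positive with median scaling (0.02). Of 41 cell cycle genes, 2 were lower and 0 higher. Of 11 erythroid genes, 0 had an unadjusted p under 0.05, and 10 had a negative log2 fold change. Hba-a1, an alpha globin, had log2 signals of 10.75 and 11.20 at relapse, 12.79, 11.33 and 12.04 at remission and 13.83, 11.16 and 11.48 in control (-1.08 ± 0.65 (SE)). Both relapse pools were below all remission pools, while the control pools ranged widely. The beta globin Hbb-bt was above background in 0 of 2 relapse, 3 of 3 remission and 3 of 3 control pools. The mean of the 2 erythroid genes above background on all arrays was 10.73 to 11.17 at relapse, 11.25 to 11.90 at remission and 10.96 to 12.30 in control.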

How the data were processed

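CP RNA was amplified, labelled with biotin and hybridised to Illumina MouseRef-8 arrays, 1 array per pool of 3 mice, for 2 relapse, 3 remission, 3 onset and 3 control pools. The labels and the study's methods name different amplification kits. The authors deposited the intensity of each probe as read with BeadStudio, with no background subtraction seen, together with a detection p-value against the negative controls. They also deposited quantile-normalized log2 values, which were used as an alternative and differed by at most 0.0888 from those computed here. Median raw intensities were 256.65 to 377.5 per array.

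Of 23983 probes, 5 duplicate rows were left out. Intensities of the 11 arrays were taken to log2 and quantile normalized, with no background correction or filter. A model with 4 group means was fitted with limma 3.58.1 in R 4.3.3, and relapse minus remission was tested two-sided on 12.53 degrees of freedom with Benjamini-Hochberg adjustment over 23978 probes. A probe named 1 gene for 20917 probes, several for 1 and none for 3060. Each gene stands for the probe of highest mean log2 signal over the arrays, and 3691 genes had more than 1 probe. A fold given as at least a value compares the brighter group with the higher of the dim probe's own signal and the lowest signal above background on each array. Figures were drawn with matplotlib 3.10.9 in Python 3.11.15.

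Genes were named if called, if among the 15 largest differences per direction that were above background in all pools of a phase and separated the phases, or if among the 4 smallest p of a list, and not every gene this covers was described. Cd3e, Cyp51, Esam, Esm1, Gbp3, Icam1, Icam2, Madcam1, Mbp, Mpo, Mvd, Plvap, Ptprb, Saa3, Serpina3n, Sqle, Tek and Ttr lie outside that rule and were chosen after their values were seen. The samples and the 46 gene lists were chosen with earlier results of these data known. In simulated data of this comparison over 23978 probes, limma recovered 47.8% of probes with a log2 change of 0.5. It recovered 91% of those with 1 and 100% of those with 2, and 5.92% of its 169 calls were unchanged probes. With 169 calls against 7 in the real data, the adjusted threshold fell at a larger unadjusted p in the simulation. Recovery in the real data may therefore be lower. Glycam1 at 1.28 and Col4a1 at -1.04 missed the threshold in the real data. The alternatives were other background corrections, normalizations, filters, samples, weights and variance priors, 1 probe per gene and a replicate block. Each relapse and remission pool was also left out in turn. No onset or control pool was left out alone, though these pools enter the estimate of the spread. The number of arrays limits the precision.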

Additional observations from a re-analysis of the deposited data

How the results depend on the processing

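The 7 probes called lower at relapse numbered 2 with neqc background correction (offset 16), 0 with median scaling, 1 when only the relapse and remission pools were normalized and fitted, 14 with array weights, and 0 without onset pool 3 and remission pool 3. Leaving out each relapse or remission pool in turn gave 0 to 4. The count was 7 with the authors' normalized values, with a filter on dim probes and with a trended robust prior, and 8 with 1 probe per gene. For probes called higher, against 0 over all pools, neqc gave 1, array weights 2 and 1 probe per gene 1. Leaving out each relapse or remission pool gave 0 to 1. At an unadjusted p, the 686 higher probes were 339 with median scaling and 318 with the filter, and the 636 lower probes were 305 with the filter and 1044 in the fit of the relapse and remission pools alone. The causes were not tested, except that the filter tests fewer probes. With the replicate number as a block, 1 probe was called lower (Alpl) and 0 higher. The numbers were not taken to pair relapse with remission, since the deviations of the same-numbered pools of these groups correlated at -0.297 and -0.189. Same-numbered remission and onset pools correlated at 0.198 to 0.346. The Lcn2 difference lay between -1.33 and -0.07 over the alternatives, and its adjusted p (limma) between 0.794 and 1. Each of the 7 called genes was past the adjusted threshold in 4 to 8 of 14 alternatives, and 0 of the 94 genes recomputed changed direction in any. Those 94 genes were largely chosen by their differences between these pools, so a kept direction was close to fixed beforehand. The counts of genes per list under each setting were chosen after seeing the data. A beadchip block was not run, since the sources used here give no beadchip. With 2 relapse pools, differences near 0.5 on the log2 scale were recovered in under 50% of simulated cases. Simulated probes varied independently, unlike real pools. The simulation also made more calls than the real data, which eased its adjusted threshold.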

Other observations

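Several other groups held a few genes with an unadjusted p under 0.05, a rule met by 2.95% of all genes lower and 2.87% higher. A count of 1 in such a list is near those shares. The genes named here all missed the adjusted threshold. Among 41 immediate early genes, 4 were lower and 1 higher at an unadjusted p, and the lower ones included Ccn2, a matrix protein induced by stretch and TGF-beta (log2 fold change -0.68), and Klf4, a transcription factor of quiescent endothelium (-0.48). Of 24 iron handling genes, 6 were lower and 1 higher, with 5 lower without remission pool 3 and 2 without relapse pool 2. Of 30 glucocorticoid targets and metallothioneins, 2 were higher and 2 lower. The higher ones were Crhbp, which binds corticotropin-releasing hormone (0.76), and Cables1, a cell cycle adaptor (0.49). Both relapse pools of Crhbp lay within the range of control. Among 37 growth factor and IGF axis genes, 3 were higher and 2 lower, the largest being the BMP-family member Gdf10 (0.71). Tgfb3, a TGF-beta ligand, was the higher one of 44 cytokine genes (0.58), of which 3 were lower. Without remission pool 3 the log2 fold changes of Ccn2, Klf4, Crhbp, Cables1, Gdf10 and Tgfb3 were -0.66, -0.40, 0.67, 0.37, 0.61 and 0.42.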
